A study of Mus musculus with 93 samples.

Results

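These data compare the posterior eyecups of Efemp1ki/ki and Wt female mice at 17 months of age by sequencing of messenger RNA. The libraries were picked by the tissue, genotype and age that their titles give, 7 from Efemp1ki/ki and 8 from Wt mice, which makes 15 of the 93 libraries of the series. Efemp1ki/ki mice carry a homozygous knock-in at Efemp1, and no treatment was given to either group. The posterior eyecup is the eye after removal of the lens and the neural retina. The other libraries are retinas of both genotypes and eyecups at 3 and 9 months. The labels name neither the altered residue nor the strain, and do not say whether each library is a mouse of its own, so any p-value given here reflects only how these libraries scatter, which may be technical.

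Efemp1 encodes fibulin-3, a secreted glycoprotein of the extracellular matrix that belongs to the same family as the fibulins of elastic fibres. In people, a change in this gene causes Doyne honeycomb retinal dystrophy, in which deposits gather between the retinal pigment epithelium and its basement membrane. Such deposits resemble the drusen of age-related macular degeneration, a disease whose inherited risk lies in part in genes of the complement system. Complement factor B, named in the title of the series, is the protease of the alternative complement pathway. The comparison asks which transcripts of the old eye wall differ when fibulin-3 is the mutant form.

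Sequencing depth was 15042177 to 35297627 estimated counts in the Efemp1ki/ki eyecups (median 20116206) and 14236127 to 28604699 in Wt eyecups (median 17270306.5). Levels below are CPM, counts scaled to a common library size with TMM factors (edgeR's trimmed mean of M values). They compare one gene between libraries, not genes with each other. The eyecups held much tissue beside the pigment epithelium. The corneal keratin gene Krt12 measured 8070 to 17700 CPM in Efemp1ki/ki and 8880 to 13600 CPM in Wt libraries, and the muscle actin gene Acta1 439 to 5100 and 436 to 4930 CPM. Rpe65, the retinoid isomerase of the pigment epithelium, measured 37.4 to 110 CPM in Efemp1ki/ki and 60.2 to 146 CPM in Wt libraries. The 17 tested genes of the rod photoreceptor list averaged 3.73 to 9.40 log2 CPM in Efemp1ki/ki and 4.85 to 9.70 log2 CPM in Wt libraries, so transcripts of neural retina were present in eyecups of both genotypes. Lens genes stood apart in Efemp1ki/ki library 6, with a mean of 2.47 log2 CPM over 11 genes, against -1.22 to 0.37 in the other Efemp1ki/ki libraries and -1.68 to -0.59 in Wt. Since these are bulk samples, fewer cells of a type and less RNA per cell cannot be told apart.

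Of 18003 genes tested with edgeR's quasi-likelihood test, 11 passed a Benjamini-Hochberg adjusted p of 0.05, or 0.0611%. In Efemp1ki/ki eyecups 8 of them were higher than in Wt (0.0444%) and 3 were lower (0.0167%). An unadjusted p under 0.05 was reached by 1803 genes (10.0%), of which 1214 were higher (6.74%) and 589 lower (3.27%) in Efemp1ki/ki. The median log2 fold change of all genes was 0.03.

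The genes higher in Efemp1ki/ki included 2 cytokines and a brake on cytokine messages. Tnf (chromosome 17, 35199381 to 35202007 in GRCm38) encodes tumour necrosis factor, the inflammatory cytokine that activates the transcription factor NF-kB. It measured 8.93, 17.8, 6.32, 34.3, 9.66, 3.35 and 3.57 CPM in Efemp1ki/ki libraries 1, 2, 4, 5, 6, 7 and 8, against 2.63, 1.69, 2.39, 3.02, 2.33, 5.33, 2.66 and 1.39 CPM in Wt libraries 1 to 8. In 5 of the 7 Efemp1ki/ki libraries Tnf was above every Wt library, while libraries 7 and 8 lay within the Wt range. The log2 fold change was 2.16 ± 0.39 (SE; adjusted p = 0.0145).

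Il17c (chromosome 8, 122422020 to 122423639) encodes a member of the interleukin-17 family that epithelial cells make in response to microbes and inflammatory cytokines. Its lowest, median and highest levels were 0.145, 0.810 and 3.79 CPM in Efemp1ki/ki and 0, 0.143 and 0.400 CPM in Wt libraries. Again 5 of 7 Efemp1ki/ki libraries exceeded all Wt libraries, and libraries 7 and 8 did not. The log2 fold change was 2.95 ± 0.63 (adjusted p = 0.0456), for a gene with few reads in Wt. Zc3h12a (chromosome 4, 125118423 to 125127840) encodes Regnase-1, a ribonuclease that degrades cytokine messages. It measured 13.0, 27.8 and 60 CPM as the lowest, median and highest of Efemp1ki/ki libraries, against 9.24, 14.4 and 18.9 CPM in Wt. The highest were libraries 2, 4 and 5, and libraries 7 and 8 were the lowest (log2 fold change 1.22 ± 0.25, adjusted p = 0.0450).

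Other genes higher in Efemp1ki/ki are known from epithelial surfaces or from lipid handling. Klk10 (chromosome 7, 43781035 to 43785410), a secreted serine protease of the kallikrein family, measured 4.84, 13.2 and 36.6 CPM in Efemp1ki/ki as lowest, median and highest, against 3.96, 5.29 and 8.93 CPM in Wt. All Efemp1ki/ki libraries but library 7 were above the highest Wt library (log2 fold change 1.63 ± 0.32, adjusted p = 0.0366). Smpdl3b (chromosome 4, 132732966 to 132757252), a membrane-bound relative of acid sphingomyelinase that dampens Toll-like receptor signals in mouse macrophages, measured 6.10, 9.96 and 16.3 CPM in Efemp1ki/ki and 3.99, 4.81 and 6.86 CPM in Wt. Here too library 7 was the 1 Efemp1ki/ki library inside the Wt range (0.99 ± 0.19, adjusted p = 0.0317).

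Rnf224 (chromosome 2, 25234476 to 25236787), a gene of the RING finger family, measured 0.657, 1.17 and 2.63 CPM in Efemp1ki/ki against 0.346, 0.429 and 0.933 CPM in Wt (1.43 ± 0.26, adjusted p = 0.0145). Ppp1r10 (chromosome 17, 35916434 to 35932283), which encodes a nuclear targeting subunit of protein phosphatase 1, was more even within the groups. Its levels were 58.7, 73.5 and 82.1 CPM in Efemp1ki/ki and 46.2, 55.9 and 62.4 CPM in Wt, and 6 of 7 Efemp1ki/ki libraries exceeded the highest Wt library (0.42 ± 0.08, adjusted p = 0.0332). The antisense transcript Gm44276 (chromosome 6, 135289359 to 135341684) measured 0.579, 1.24 and 2.83 CPM in Efemp1ki/ki and 0.401, 0.577 and 0.733 CPM in Wt (1.27 ± 0.27, adjusted p = 0.0450). Whether the authors' counting used the strand is not given, so its reads cannot be told apart from those of genes on the other strand.

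**Figure D1:**
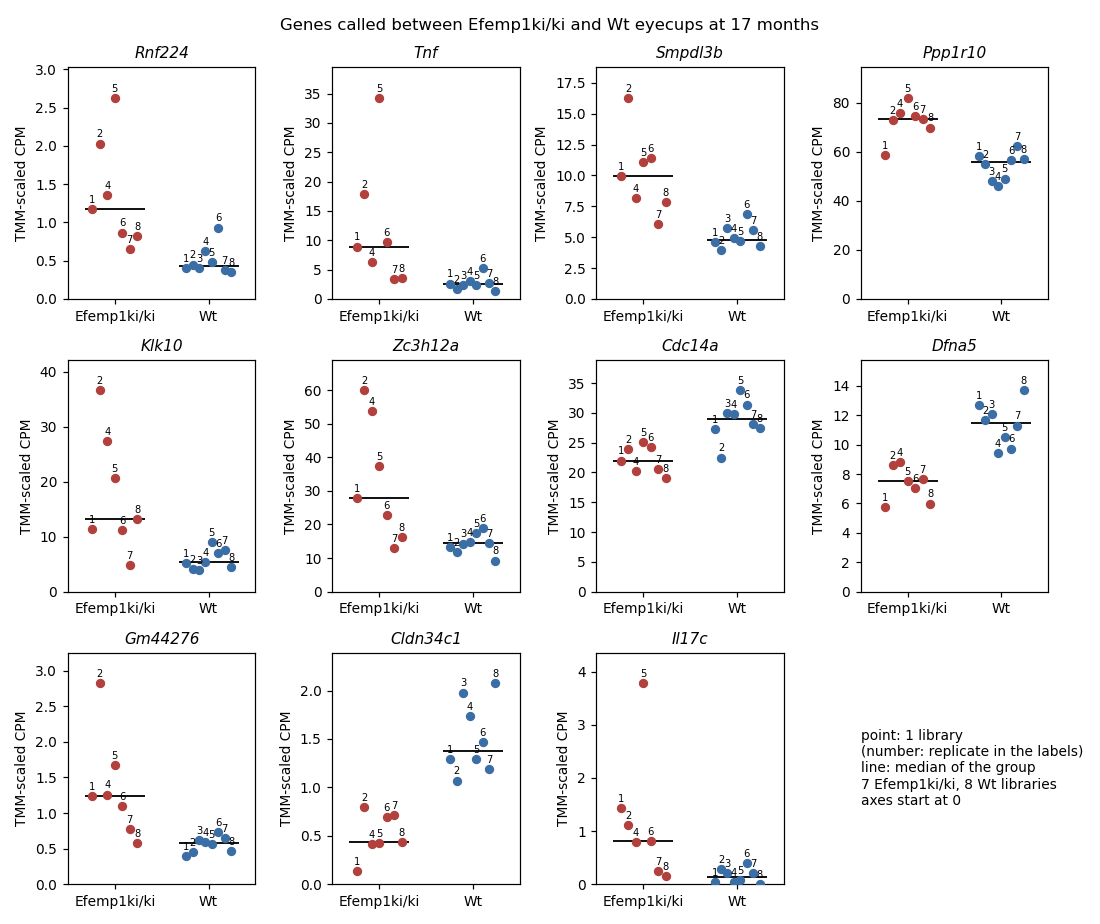
TMM-scaled CPM of the 11 genes called at 17 months, 1 panel per gene with its own axis from 0. Each point is 1 library, numbered as in the labels, with Efemp1ki/ki on the left and Wt on the right, and the line is the median. For each of the 8 genes higher in Efemp1ki/ki the highest point is Efemp1ki/ki library 2 or 5. No Wt library reaches the Efemp1ki/ki median of Tnf (8.93 CPM), and Dfna5 and Cldn34c1 show no overlap.

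The 3 genes lower in Efemp1ki/ki were Dfna5, Cldn34c1 and Cdc14a. Dfna5 (chromosome 6, 50188888 to 50263862) encodes gasdermin E, which forms pores in the cell membrane when caspase-3 cuts it. It measured 5.77, 7.53 and 8.81 CPM in Efemp1ki/ki as lowest, median and highest, against 9.45, 11.5 and 13.7 CPM in Wt. The groups did not overlap (log2 fold change -0.63 ± 0.13, adjusted p = 0.0450). Cldn34c1 (chromosome X, 123103495 to 123188795), of the claudin family of tight junction proteins, measured 0.137, 0.435 and 0.8 CPM in Efemp1ki/ki and 1.07, 1.38 and 2.08 CPM in Wt, again without overlap (-1.54 ± 0.33, adjusted p = 0.0450). It lies in a cluster of closely similar genes, so the assignment of its reads is uncertain. Cdc14a (chromosome 3, 116272553 to 116424032), a phosphatase of the cell division cycle and of stereocilia, measured 19.1, 22 and 25.1 CPM in Efemp1ki/ki and 22.5, 29.0 and 33.8 CPM in Wt. For it 4 of 7 Efemp1ki/ki libraries lay below the lowest Wt library (-0.38 ± 0.08, adjusted p = 0.0450).

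Further genes were lower in every Efemp1ki/ki library than in any Wt library without passing the adjusted threshold. Plagl1 (chromosome 10, 13060504 to 13131694), an imprinted gene for a zinc finger protein that halts the cell cycle, measured 6.04, 8.34 and 13.8 CPM in Efemp1ki/ki and 13.8, 15.1 and 17.9 CPM in Wt, where the highest Efemp1ki/ki library lay below the lowest Wt library by less than the rounding (log2 fold change -0.85 ± 0.19, adjusted p = 0.0813). Gulp1, an adaptor for engulfment of dying cells, measured 3.93, 5.38 and 6.32 CPM in Efemp1ki/ki and 6.34, 9.19 and 12.6 CPM in Wt (-0.82 ± 0.19, adjusted p = 0.0813). Bmi1, a Polycomb gene that represses the cell cycle inhibitors of the Cdkn2a locus, measured 24.1, 34.3 and 41.5 CPM in Efemp1ki/ki and 46.0, 51.1 and 68.6 CPM in Wt (-0.66 ± 0.16, adjusted p = 0.101). Cdkn2a itself measured 0.598, 2.29 and 2.84 CPM in Efemp1ki/ki and 0.577, 1.02 and 1.87 CPM in Wt (0.90 ± 0.33, adjusted p = 0.332). Eid1, an inhibitor of differentiation, measured 38.5 to 56.5 CPM in Efemp1ki/ki and 59.6 to 95.0 CPM in Wt (-0.55 ± 0.12, adjusted p = 0.0797).

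In all, 19 of 18003 genes (0.106%) had no overlap between the 7 Efemp1ki/ki and the 8 Wt libraries, 8 higher (0.0444%) and 11 lower (0.0611%) in Efemp1ki/ki. The 11 include the 6 named above without overlap. Among the 8, named here after their values were seen, is Duox2, an oxidase that makes hydrogen peroxide at mucosal surfaces. It measured 3.05 to 5.92 CPM in Efemp1ki/ki and 1.19 to 2.86 CPM in Wt (0.81 ± 0.21, adjusted p = 0.140). The other 7 differed by 0.12 to 0.71 on the log2 scale.

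The number of calls moved with single libraries and with the processing. Without Efemp1ki/ki library 5, Wt library 1 or Wt library 8 no gene was called, against 20 without Efemp1ki/ki library 7 and 23 without Wt library 6. GC content moved with genotype: the slope of a library's log2 deviation on transcript GC content, per 10 percentage points, averaged 0.0909 ± 0.12 in Efemp1ki/ki (SD, n = 7) and -0.0424 ± 0.0571 in Wt (n = 8; exact permutation p = 0.0145, 2-sided). Genes higher at an unadjusted p under 0.05 had a median GC content of 52.6% and those lower 40.8%, against 49.7% of all. With a GC offset per library none of the 18003 genes was called. Under that offset Tnf kept a log2 fold change of 2.13 (adjusted p = 0.0641) and Il17c one of 2.92 (0.0912), while Cdc14a stood at -0.19 (0.728), Dfna5 at -0.39 (0.114) and Gulp1 at -0.43 (0.638).

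**Figure D2:**
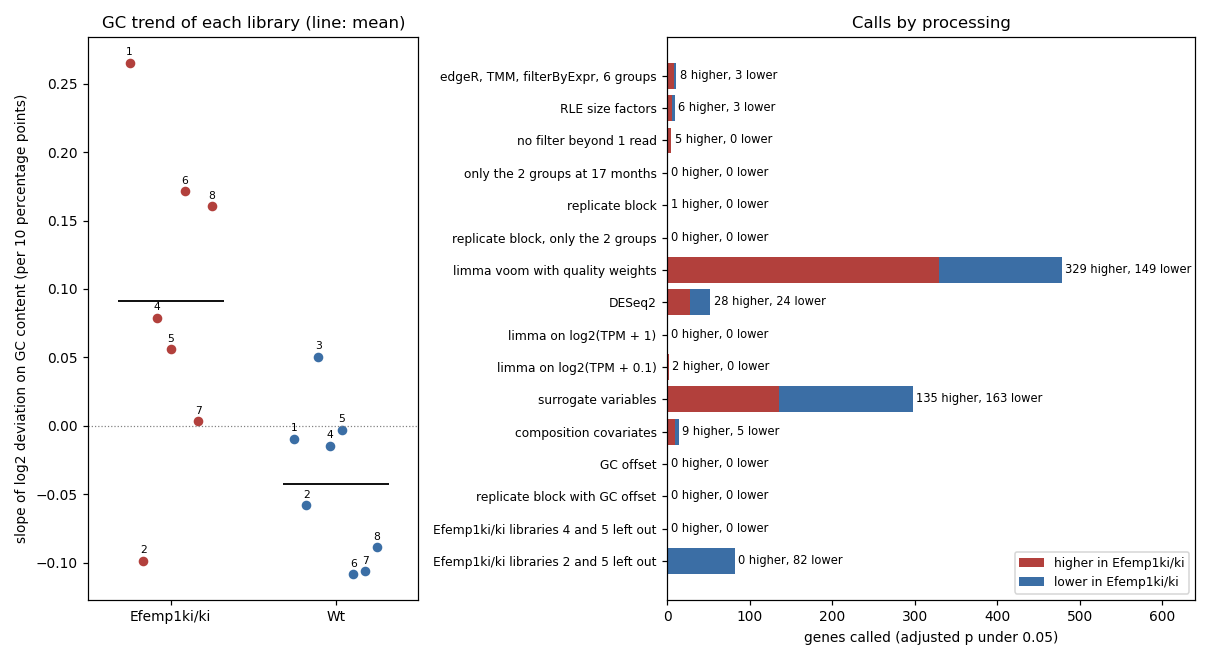
Left, the slope of log2 deviation on transcript GC content (per 10 percentage points) of each library, Efemp1ki/ki left of Wt, numbered as in the labels, with the mean as a line (0.0909 and -0.0424). Right, the number of genes called at 17 months under each processing, split into higher and lower in Efemp1ki/ki, from 0 with a GC offset to 478 with limma voom.

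Around Tnf and Zc3h12a, lists of genes controlled by NF-kB were examined. The lists below were written with earlier results of these data known, so their counts describe the data and test nothing. Each list's count at an unadjusted p under 0.05 is to be set beside the shares of all genes, 6.74% higher and 3.27% lower. Of 25 listed cytokines and chemokines 16 passed the filter on low counts. Only Tnf of the 16 was called, 9 were higher at an unadjusted p under 0.05 (6.74% of all genes were) and none was lower (3.27% of all). Their median log2 fold change was 0.87, beside 0.03 for all genes, and lay between 0.45 and 0.97 under the 30 alternatives run.

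Cxcl5, a chemokine that draws neutrophils, measured 30.3 CPM in Efemp1ki/ki library 4, 22.4 in library 2 and 4.00 in library 5. The remaining 4 Efemp1ki/ki libraries held 0.435 to 0.694 CPM, within the Wt range of 0.225 to 3.25 CPM (2.91 ± 0.70, adjusted p = 0.110). Lif, a cytokine of the interleukin-6 family, measured 2.37, 3.99 and 9.53 CPM as lowest, median and highest in Efemp1ki/ki and 1.07, 2.49 and 3.73 CPM in Wt (1.01 ± 0.25, adjusted p = 0.122). Il1a, an alarm cytokine of epithelia, measured 11.8 to 42.8 CPM in Efemp1ki/ki and 6.01 to 24.7 CPM in Wt (0.85 ± 0.30, adjusted p = 0.326). Cxcl1 and Cxcl2, also neutrophil chemokines, reached 5.26 and 2.99 CPM in Efemp1ki/ki libraries 5 and 2, against at most 0.705 and 0.379 CPM in Wt. Neither was called (log2 fold change 1.73, adjusted p = 0.292, and 2.21, adjusted p = 0.199). In Efemp1ki/ki libraries 6 and 8 Cxcl2 was at 0.0578 and 0.0483 CPM, and in the lowest Wt library at 0.0804 CPM. Levels this low rest on very few reads, so no difference can be read from their order.

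Of the 24 feedback regulators of NF-kB, 1 was called (Zc3h12a), 12 were higher at an unadjusted p under 0.05 and none lower, with a median of 0.28 (0.13 to 0.32 under the alternatives). Nfkbiz, an atypical inhibitor that also co-activates secondary response genes, measured 53.1, 91.1 and 188 CPM in Efemp1ki/ki and 44.1, 56.4 and 93.7 CPM in Wt (0.81 ± 0.21, adjusted p = 0.140). Nfkbia, which encodes the inhibitor that holds NF-kB in the cytoplasm, measured 26.8, 47.4 and 83.4 CPM in Efemp1ki/ki and 28.8, 32.5 and 44.1 CPM in Wt (0.52 ± 0.15, adjusted p = 0.206). The list of Tnf processing and receptor signalling genes moved less, with a median of 0.16 and none called. In it 4 of 22 were higher at an unadjusted p under 0.05 (6.74% of all genes were).

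The promoters of 2 chemokines are printed because their genes lie in the cytokine list and hold the 9-letter NF-kB motif GGANTTTCC, searched on both strands from 250 bases before to 50 after the RefSeq start (GRCm38.p6) and set in capitals.
Cxcl1 promoter, chr5:90890995-90891294, plus strand: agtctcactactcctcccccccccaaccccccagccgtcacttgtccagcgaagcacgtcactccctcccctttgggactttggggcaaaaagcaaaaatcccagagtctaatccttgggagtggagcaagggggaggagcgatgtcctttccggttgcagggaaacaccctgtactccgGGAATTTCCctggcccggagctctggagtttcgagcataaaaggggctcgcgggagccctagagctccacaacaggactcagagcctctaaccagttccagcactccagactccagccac
Cxcl2 promoter, chr5:90903649-90903948, plus strand: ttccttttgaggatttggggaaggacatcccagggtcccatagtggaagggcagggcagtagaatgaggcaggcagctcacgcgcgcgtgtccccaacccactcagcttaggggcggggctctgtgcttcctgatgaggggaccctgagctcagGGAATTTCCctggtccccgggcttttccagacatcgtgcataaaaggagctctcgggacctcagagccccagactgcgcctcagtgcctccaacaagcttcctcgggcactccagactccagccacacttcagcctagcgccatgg
This motif was in 5 of the 12 tested cytokine genes with a RefSeq promoter (41.7%), none of them called, and in 5 of 21 feedback regulators (23.8%). Counted by promoter rather than by gene, 1.25% of all 32851 held it. Both lists were written as genes controlled by NF-kB, so such shares were to be foreseen and test nothing about these eyecups. The Tnf promoter window held no match, which says only that these letters are not in it.

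Genes of stratified and mucosal epithelia were higher in several Efemp1ki/ki libraries. Of 12 kallikreins 6 passed the filter and 1 was called (Klk10). At an unadjusted p under 0.05, 3 of the 6 were higher (6.74% of all genes were). Their median was 0.70 (0.41 to 0.77 under the alternatives). Klk11 measured 6.69, 14.3 and 23.9 CPM in Efemp1ki/ki and 5.59, 8.02 and 10.5 CPM in Wt (0.85 ± 0.22, adjusted p = 0.140). Klk13 reached 5.65 CPM in Efemp1ki/ki library 2 and 1.26 CPM in library 4, and was otherwise at 0.241 to 0.790 CPM, against 0.0666 to 0.682 CPM in Wt. In contrast Klk6, of the same cluster, measured 36.3 to 75.2 CPM in Efemp1ki/ki and 38.6 to 56.9 CPM in Wt (0.12 ± 0.18).

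In the list of cornified envelope and surface differentiation genes, none of 21 tested was called and 9 were higher at an unadjusted p under 0.05. The median was 0.47 (0.24 to 0.55 under the alternatives). Ovol1, a transcription factor of epidermal differentiation, measured 18.6, 36.5 and 61.4 CPM in Efemp1ki/ki and 11.7, 17.5 and 27.5 CPM in Wt (0.93 ± 0.23, adjusted p = 0.129). Krt16, a keratin of activated epidermis, was at 37.7 CPM in Efemp1ki/ki library 2 and at 27.6 CPM in libraries 4 and 6, while the Wt libraries held 1.69 to 9.54 CPM (1.54 ± 0.52, adjusted p = 0.278). Il1f9, an epithelial cytokine of the interleukin-1 family, measured 10.8, 25.3 and 82.4 CPM in Efemp1ki/ki and 7.04, 9.00 and 24.9 CPM in Wt (1.37 ± 0.35, adjusted p = 0.140).

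Of 18 mucosal defence and mucin genes none was called and 8 were higher at an unadjusted p under 0.05. The median was 0.55 (0.18 to 0.67 under the alternatives). Lcn2, which encodes an iron-withholding protein, measured 3.71, 10.4 and 66.6 CPM in Efemp1ki/ki and 2.08, 3.50 and 9.70 CPM in Wt (2.10 ± 0.53, adjusted p = 0.129). Reg3g, an antibacterial lectin, was at 122, 44.6 and 34.1 CPM in Efemp1ki/ki libraries 2, 5 and 4, at 0 to 3.09 CPM in the other 4, and at 0 to 5.48 CPM in Wt. Ltf, the lactoferrin gene, measured 18.6, 67.2 and 390 CPM in Efemp1ki/ki and 9.95, 29.0 and 96.8 CPM in Wt (1.62 ± 0.46, adjusted p = 0.199).

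Marker genes of surface tissue and of immune cells were set beside these genes. Of 25 tested keratin and corneal factor genes 24 had a positive log2 fold change, with a median of 0.32. None was called, and 5 were higher at an unadjusted p under 0.05. They averaged 8.38 to 9.60 log2 CPM in Efemp1ki/ki libraries (median 8.88) and 7.85 to 9.33 in Wt (median 8.65). Library 2 had the highest value, and 20 of the 25 genes were above every Wt library in it, against 0 in library 1 and 0 in library 7. Of all tested genes 20.5%, 19.7% and 3.67% were above every Wt library in libraries 2, 1 and 7. When the levels of the corneal, muscle and rod lists were covariates, 14 genes were called, 5 of them among the 11. Under those covariates Tnf had a log2 fold change of 1.49 (adjusted p = 0.0875), Klk10 of 1.14 (0.0226) and Smpdl3b of 0.66 (0.00538). The medians of the cornified and mucosal lists were 0.24 and 0.18 under them, their lowest among the alternatives.

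Of the chosen neutrophil markers, Mpo was at or near 0 and Ly6g was low, while S100a8 and S100a9 had no values here. The granule gene Mpo was at 0 in 6 of 7 Efemp1ki/ki and 7 of 8 Wt libraries, and Ly6g measured 0.179 to 0.869 CPM in Efemp1ki/ki and 0.163 to 0.804 CPM in Wt. The 7 neutrophil genes that passed the filter, Ltf among them, averaged 2.23 to 3.02 log2 CPM in Efemp1ki/ki and 1.95 to 2.62 in Wt. Of these 7, 3 were higher at an unadjusted p under 0.05 (6.74% of all genes were). None of the 7 was called, and their median log2 fold change was 0.15. The 12 tested T and NK cell genes had a median of 0.36, with 10 positive and 2 negative. Of them 3 were higher at an unadjusted p under 0.05 and none was called. All 9 B and plasma cell genes were positive, with a median of 0.43, 1 higher at that level and none called. Genes of the T cell receptor complex were low in both groups. Cd3g measured 0.488, 0.867 and 1.87 CPM in Efemp1ki/ki and 0.169, 0.473 and 0.750 CPM in Wt (1.14 ± 0.31, adjusted p = 0.180), and Cd3e 0.478 to 1.89 and 0.223 to 0.657 CPM. For macrophages the list median was 0.14, with 1 of 18 genes higher at an unadjusted p under 0.05. The part of any of these cells in the cytokine values was not tested.

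All 22 proliferation genes had a positive log2 fold change. None was called, 17 were higher at an unadjusted p under 0.05, and the median was 0.48 (0.20 with the tissue covariates). Mcm2, of the helicase that opens replication origins, measured 18.2, 28.7 and 40.7 CPM in Efemp1ki/ki and 16.6, 22.2 and 29.9 CPM in Wt (0.46 ± 0.14, adjusted p = 0.246). Mki67, the gene of the Ki-67 antigen, measured 60.5, 95.0 and 142 CPM in Efemp1ki/ki and 44.3, 64.5 and 111 CPM in Wt (0.57 ± 0.20, adjusted p = 0.324). In library 2 of Efemp1ki/ki all 22 exceeded every Wt library, and in libraries 7 and 8 none did. The shares of all tested genes were 20.5%, 3.67% and 12.4% in libraries 2, 7 and 8.

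**Figure D3:**
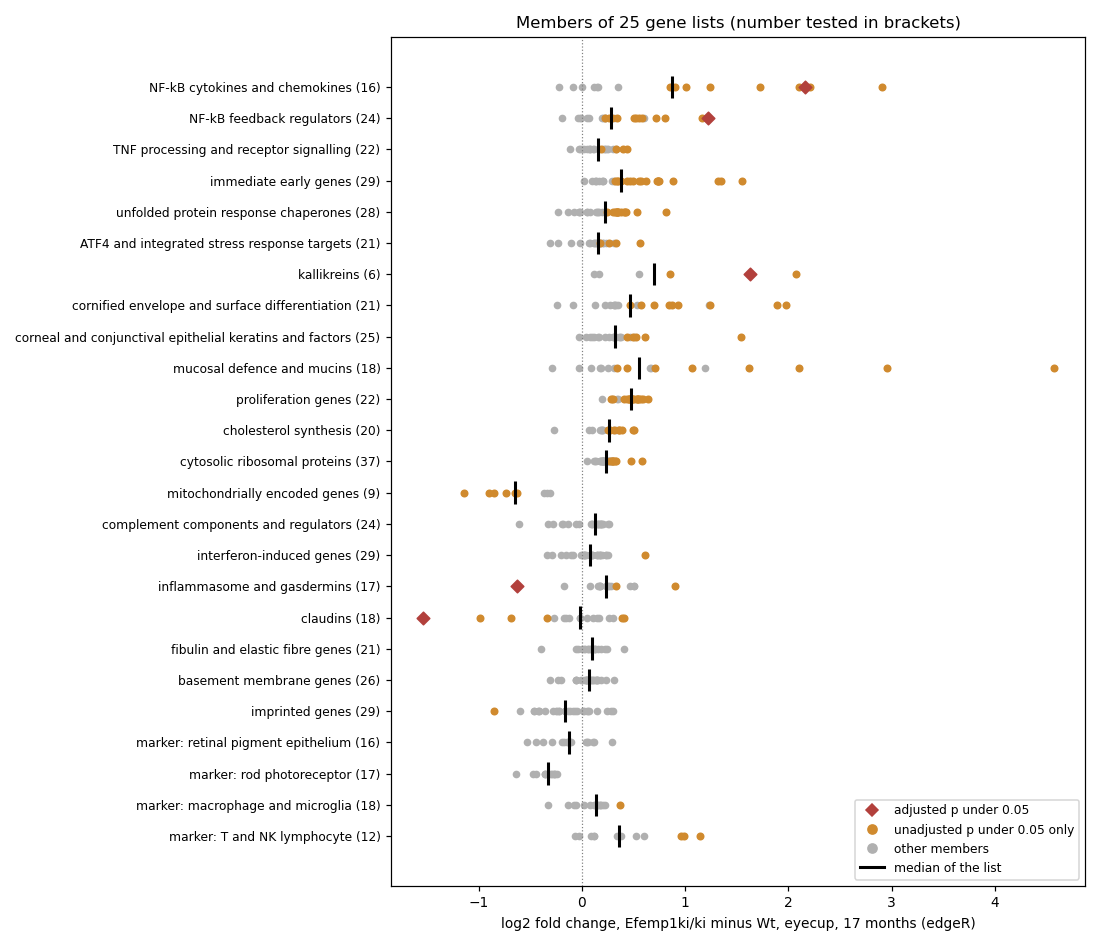
Log2 fold change, Efemp1ki/ki minus Wt, of each tested member of 25 gene lists in eyecups at 17 months. Each point is 1 gene, a diamond marks an adjusted p under 0.05, orange an unadjusted p under 0.05 only, and the black line the list's median, from 0.87 for NF-kB cytokines to -0.65 for mitochondrially encoded genes.

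Immediate early genes, which cells transcribe within minutes of a stimulus, were measured next. All 29 tested members had a positive log2 fold change, 18 were higher at an unadjusted p under 0.05, none was called and the median was 0.38. The list's median was 0.29 at 3 months and 0.25 at 9 months, and whether it differed between the ages was not tested. Dusp5, a phosphatase that inactivates the kinase ERK, measured 52.8, 75.9 and 113 CPM in Efemp1ki/ki and 38.6, 44.9 and 62.8 CPM in Wt, with 6 of 7 Efemp1ki/ki libraries above the highest Wt library (0.74 ± 0.17, adjusted p = 0.0813). Egr1 was at 347 CPM in Efemp1ki/ki library 5 and at 54.3 to 123 CPM in the other 6, against 22.5 to 75.3 CPM in Wt (1.35 ± 0.37, adjusted p = 0.180). Atf3 and Fosb, both also of the stimulus-induced transcription factors, had their maxima of 32.2 and 51.9 CPM in the same library, against at most 11.5 and 8.24 CPM in Wt. Library 5 was above every Wt library in 25 of the 29 genes, and library 4 in 3, beside 9.84% and 10.7% of all tested genes. Without libraries 2 and 5 the median was 0.13, with 2 genes higher at an unadjusted p under 0.05.

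The chaperones of the unfolded protein response, which the endoplasmic reticulum makes when misfolded protein builds up, were examined next. Of 28 tested genes 14 were higher at an unadjusted p under 0.05, none lower and none called, with a median of 0.22 (0.14 to 0.28 under the alternatives). Hyou1 measured 81.4, 102 and 115 CPM in Efemp1ki/ki and 71.8, 82 and 85.5 CPM in Wt, with all Efemp1ki/ki libraries but library 7 above every Wt library (0.32 ± 0.08, adjusted p = 0.123). Creld2, another resident of the endoplasmic reticulum, measured 19.1, 25.8 and 30.8 CPM in Efemp1ki/ki and 17.2, 18.4 and 21.5 CPM in Wt (0.42 ± 0.11, adjusted p = 0.140). Hspa5, the master chaperone BiP, measured 322, 467 and 552 CPM in Efemp1ki/ki and 254, 356 and 396 CPM in Wt (0.43 ± 0.14, adjusted p = 0.267). Calr and Pdia6, a lectin chaperone and a disulphide isomerase, differed by 0.35 ± 0.10 and 0.38 ± 0.11. In library 2 of Efemp1ki/ki 22 of the 28 exceeded every Wt library, in library 4 it was 9 and in library 7 it was 2. For all tested genes the shares in these libraries were 20.5%, 10.7% and 3.67%. Without libraries 2 and 5 the median was 0.16 and 11 genes were higher at an unadjusted p under 0.05.

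The promoters of 4 of these genes are printed because they hold the endoplasmic reticulum stress element, searched as CCAAT, any 9 letters and CCACG on both strands. The whole element is in capitals.
Hspa5 promoter, chr2:34771840-34772139, plus strand: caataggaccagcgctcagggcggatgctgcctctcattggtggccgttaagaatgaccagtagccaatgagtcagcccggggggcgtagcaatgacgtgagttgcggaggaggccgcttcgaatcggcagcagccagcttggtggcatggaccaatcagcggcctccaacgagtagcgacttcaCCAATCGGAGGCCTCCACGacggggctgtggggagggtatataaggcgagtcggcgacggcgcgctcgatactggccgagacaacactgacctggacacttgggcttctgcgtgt
Calr promoter, chr8:84846882-84847181, minus strand: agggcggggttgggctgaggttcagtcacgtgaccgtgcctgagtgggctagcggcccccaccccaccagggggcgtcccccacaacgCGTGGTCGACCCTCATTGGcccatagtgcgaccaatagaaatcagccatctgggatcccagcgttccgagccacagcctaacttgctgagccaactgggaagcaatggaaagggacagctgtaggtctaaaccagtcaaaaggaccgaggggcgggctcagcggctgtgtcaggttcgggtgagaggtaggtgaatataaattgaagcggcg
Pdia6 promoter, chr12:17266339-17266638, plus strand: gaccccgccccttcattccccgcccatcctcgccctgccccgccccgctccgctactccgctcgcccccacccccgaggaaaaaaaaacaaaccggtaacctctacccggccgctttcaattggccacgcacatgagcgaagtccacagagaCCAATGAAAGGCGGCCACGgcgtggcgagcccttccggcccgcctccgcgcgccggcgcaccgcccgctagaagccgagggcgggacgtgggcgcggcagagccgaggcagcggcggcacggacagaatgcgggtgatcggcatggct
Creld2 promoter, chr15:88819396-88819695, plus strand: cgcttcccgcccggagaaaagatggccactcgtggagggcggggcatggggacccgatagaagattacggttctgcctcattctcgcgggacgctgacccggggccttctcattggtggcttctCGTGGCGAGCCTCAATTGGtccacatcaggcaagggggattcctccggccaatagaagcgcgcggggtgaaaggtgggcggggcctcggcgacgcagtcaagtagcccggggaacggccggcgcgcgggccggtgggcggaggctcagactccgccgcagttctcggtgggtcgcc
The element was in 9 of the 22 tested genes of the list with a RefSeq promoter (40.9%). Counted by promoter rather than by gene, 0.119% of all 32851 held it. The list was written as genes of this response, so such a share was to be foreseen and tests nothing about these eyecups. None of the 12 cytokine genes and none of the 22 immediate early genes with a RefSeq promoter held the element.

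The integrated stress response, which the kinase PERK also feeds, is read through targets of Atf4. Of 21 tested 4 were higher at an unadjusted p under 0.05, none was called and the median was 0.16, beside 0.14 at 3 months and -0.01 at 9 months. Ppp1r15a encodes GADD34, the phosphatase subunit that ends this response. It measured 35.5, 58.4 and 90.9 CPM in Efemp1ki/ki and 28.2, 40.5 and 45.1 CPM in Wt, and 5 of 7 Efemp1ki/ki libraries exceeded the highest Wt library (0.56 ± 0.14, adjusted p = 0.123). Its promoter is printed for the cyclic AMP element TGACGTCA, found in 1.79% of promoters and set in capitals.
Ppp1r15a promoter, chr7:45526219-45526518, minus strand: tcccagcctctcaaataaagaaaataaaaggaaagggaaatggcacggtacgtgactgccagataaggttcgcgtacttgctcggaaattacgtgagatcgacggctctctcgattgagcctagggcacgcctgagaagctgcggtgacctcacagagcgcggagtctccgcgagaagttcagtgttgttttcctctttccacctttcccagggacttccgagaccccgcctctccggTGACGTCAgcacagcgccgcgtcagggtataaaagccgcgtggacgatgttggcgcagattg

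Among housekeeping groups, the 9 mitochondrially encoded genes in the table all had negative log2 fold changes, with 6 lower at an unadjusted p under 0.05, none called and a median of -0.65. Their median was -0.75 at 3 months and -0.08 at 9 months. The cytochrome oxidase gene mt-Co3 measured 2540, 3740 and 9140 CPM in Efemp1ki/ki and 4370, 9460 and 17300 CPM in Wt (-1.14 ± 0.40, adjusted p = 0.309). With the GC offset 1 of the 9 stayed lower at that level and the median was -0.35. The 34 tested respiratory chain subunits encoded in the nucleus had a median of 0.11, and none passed an unadjusted p of 0.05. The 37 cytosolic ribosomal protein genes all had positive values, 8 of them at an unadjusted p under 0.05, with a median of 0.23. Reads of such genes are shared with many pseudogenes and are uncertain. Cholesterol synthesis genes, in which 8 of 20 were higher at that level with a median of 0.26, included Mvd at 21.9, 32.9 and 48.8 CPM in Efemp1ki/ki and 20.8, 23.5 and 31.1 CPM in Wt (0.50 ± 0.15, adjusted p = 0.246).

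The genes nearest to the disease showed no called difference. Efemp1 itself measured 208 ± 39.5 CPM in Efemp1ki/ki (SD, n = 7) and 217 ± 47.8 CPM in Wt (n = 8; log2 fold change -0.06 ± 0.15, adjusted p = 0.927), a level that cannot check the labels, because the knock-in changes the sequence of the gene. Cfb averaged 20.8 ± 5.53 CPM in Efemp1ki/ki and 18.3 ± 7.04 CPM in Wt (0.19 ± 0.22, adjusted p = 0.848). None of 24 complement genes reached an unadjusted p under 0.05 in either direction, and the median was 0.13. C3, the protein on which all complement pathways meet, measured 134, 223 and 263 CPM in Efemp1ki/ki and 86.9, 180 and 240 CPM in Wt (0.26 ± 0.20). Of 29 interferon-induced genes 1 was higher at that level, Oasl1 at 0.61 ± 0.20 (adjusted p = 0.267), and the list's median of 0.08 turned negative under 5 of 30 alternatives.

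Matrix genes were as flat. None of 21 fibulin and elastic fibre genes and none of 26 basement membrane genes reached an unadjusted p under 0.05, with medians of 0.10 and 0.07. Among 24 matrix proteases and inhibitors 1 did, Plaur, the urokinase receptor, at 0.58 ± 0.24 (adjusted p = 0.397). In 30 genes of inherited macular disease and macular degeneration risk, 1 was higher and 1 lower at that level. The lower one was Abca1, the cholesterol exporter, with 49.7, 54.3 and 63.6 CPM in Efemp1ki/ki and 59.5, 69.1 and 73.5 CPM in Wt (-0.30 ± 0.08, adjusted p = 0.180). The 16 pigment epithelium markers had a median of -0.12 with none past an unadjusted p of 0.05.

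Families of the genes lower in Efemp1ki/ki were counted next. Of 17 inflammasome and gasdermin genes Dfna5 was the 1 lower at an unadjusted p under 0.05 (3.27% of all genes were), and 2 were higher (6.74% of all). Gsdmd, the gasdermin of inflammasome signalling, measured 7.17 to 15.3 CPM in Efemp1ki/ki and 8.09 to 11.3 CPM in Wt (0.23 ± 0.15). Of 18 claudins 4 were lower and 2 higher at that level, which 3.27% and 6.74% of all genes reached, with a median of -0.02 that turned positive under 9 of 30 alternatives. Cldn8 measured 1.74, 2.87 and 6.95 CPM in Efemp1ki/ki and 0.899, 6.07 and 13.1 CPM in Wt (-0.69 ± 0.34), whereas the epithelial Cldn7 measured 109, 157 and 273 CPM in Efemp1ki/ki and 83.9, 120 and 200 CPM in Wt (0.41 ± 0.18). Among 29 imprinted genes Plagl1 was the 1 past an unadjusted p of 0.05, which is near the 3.27% of all genes that were lower at that level. The median was -0.16.

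The Efemp1ki/ki libraries differed among themselves in these genes. Of the 16 cytokines, 11 exceeded every Wt library in library 2, 10 in library 5 and 8 in library 4, against 4 each in libraries 1 and 6, 1 in library 8 and 0 in library 7. Over all tested genes those shares were 20.5% in library 2, 9.84% in library 5, 10.7% in library 4, 19.7% in library 1, 11.6% in library 6, 12.4% in library 8 and 3.67% in library 7. The mean of the rod genes, a sign of remaining retina, was 7.02, 3.73, 9.40, 6.01, 6.39, 9.34 and 6.77 log2 CPM in Efemp1ki/ki libraries 1, 2, 4, 5, 6, 7 and 8, and its part in these counts was not tested. Leaving out libraries 2 and 5, those with the highest Tnf (a choice made after seeing the data), 82 genes were called, all of them lower in Efemp1ki/ki. Of the 11 genes 3 were among these, Cdc14a, Dfna5 and Cldn34c1, and the 82 had a median GC content of 39.3%. Tnf then had a log2 fold change of 1.22 (adjusted p = 0.0962). Plagl1 was called without these libraries at -1.12 (adjusted p = 0.00748), and Marcks, a protein kinase C substrate at the membrane, at -0.97 (adjusted p = 0.000316).

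**Figure D4:**
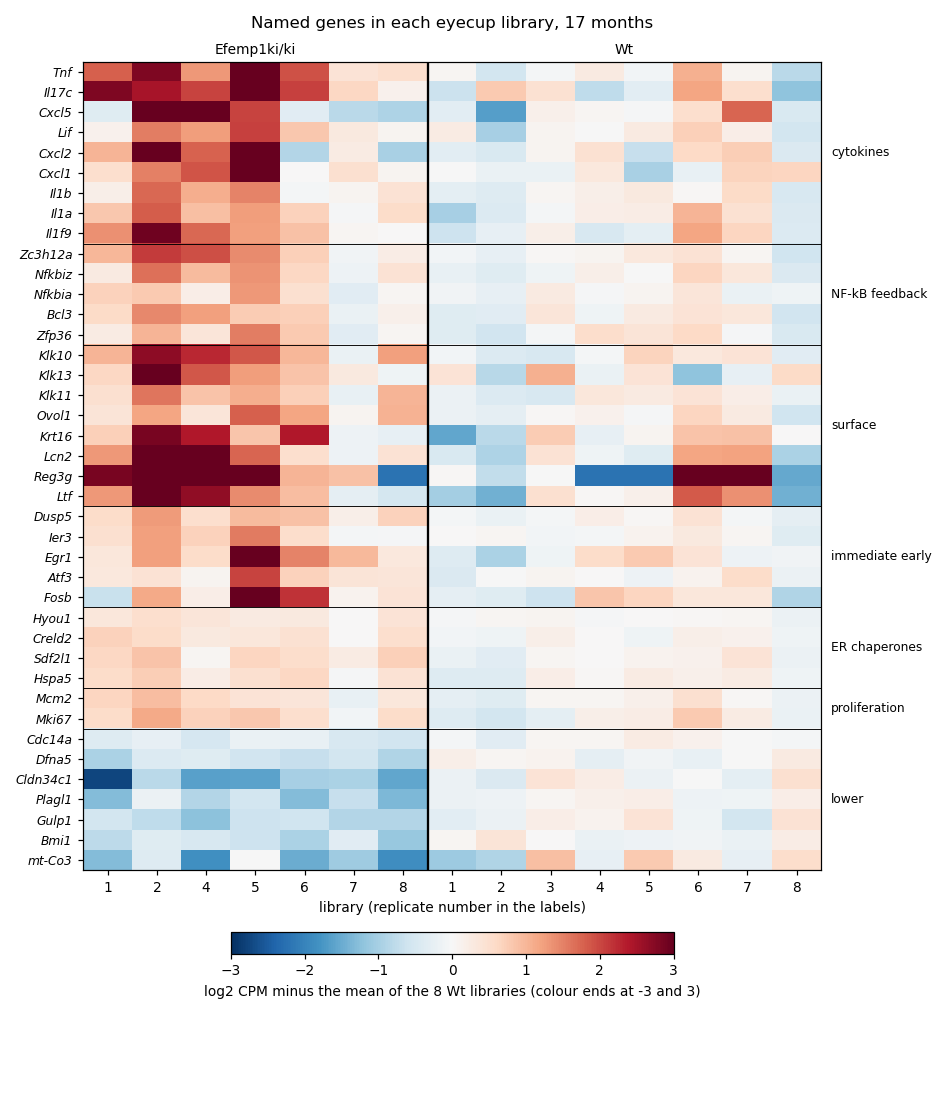
Log2 CPM of 40 named genes minus the mean of the 8 Wt libraries, with the 7 Efemp1ki/ki libraries to the left of the 8 Wt libraries and genes grouped by role. Red is above and blue below the Wt mean. Libraries 2, 4 and 5 of Efemp1ki/ki are red in most cytokine and surface genes, library 7 is close to Wt in them, and the lower genes are blue in most Efemp1ki/ki libraries.

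How far these differences belonged to the age of 17 months was tested as the genotype difference at 17 months minus that at a younger age. Against 3 months no gene passed (0 of 18003, with 560 or 3.11% at an unadjusted p under 0.05, 0 by limma voom and 1 by DESeq2). Tnf came to 2.05 ± 0.54 (adjusted p = 0.955) and Zc3h12a to 1.45 ± 0.36 (0.936). Tnf averaged 8.18 ± 2.34, 3.78 ± 1.30 and 12.0 ± 11.0 CPM in Efemp1ki/ki eyecups at 3, 9 and 17 months (SD, n = 8, 8 and 7), and 7.60 ± 2.19, 4.95 ± 2.57 and 2.68 ± 1.2 CPM in Wt (n = 6, 8 and 8). The Wt mean was lower at each later age, and the Efemp1ki/ki libraries at 17 months were the most widely spread of the 6 groups. Zc3h12a averaged 30.8 ± 6.33, 20 ± 5.4 and 33.0 ± 18.2 CPM in Efemp1ki/ki at the 3 ages, and 36.2 ± 12.9, 17.5 ± 6.57 and 14.2 ± 3.02 CPM in Wt.

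Against 9 months 3 of 18003 genes passed (0.0167%). Rnf224 was among them at 1.88 ± 0.35 (adjusted p = 0.0241), with 0.634 ± 0.189 CPM in Efemp1ki/ki and 0.863 ± 0.247 CPM in Wt at 9 months. The others, Alb at 11.75 ± 1.70 (0.000397) and Cyp4a14 at 5.74 ± 1.08 (0.0241), are genes best known from liver. Alb measured 0 to 3.15 CPM in Efemp1ki/ki and 0 to 0.0682 CPM in Wt at 17 months, and averaged 0.0379 ± 0.0462 and 2.96 ± 4.30 CPM at 9 months. Tnf came to 2.55 ± 0.53 (0.0934).

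At 3 months, where 3.07% of all genes were called, Dfna5 had a log2 fold change of -0.79 ± 0.14 (adjusted p = 0.00201), Cdc14a of -0.37 ± 0.08 (0.00961) and Ppp1r10 of 0.34 ± 0.09 (0.0239). Cldn34c1 missed the threshold there at -1.05 (0.0595). The GC slopes of the libraries also parted the genotypes at 3 months, at 0.0471 to 0.815 in Efemp1ki/ki and -0.0991 to -0.0288 in Wt. They overlapped at 9 months, at -0.259 to 0.107 and -0.231 to -0.0372. Dfna5 has a GC content of 38.7%, Cdc14a of 40.1% and Ppp1r10 of 54.7%. Their differences at 3 months are given without a GC offset, so the part of GC content in them is not shown. At 9 months, where 0.00555% of genes were called, Dfna5, Cdc14a and Ppp1r10 were not, with log2 fold changes of -0.23, -0.14 and 0.04. The difference at 17 months minus that at 3 months was 0.16 ± 0.19 for Dfna5 and 0.08 ± 0.12 for Ppp1r10, both with an adjusted p of 0.998. Plagl1 averaged 7.28 ± 1.62, 14.4 ± 5.64 and 8.67 ± 2.86 CPM in Efemp1ki/ki at the 3 ages, and 17.3 ± 2.82, 16.5 ± 3.36 and 15.6 ± 1.85 CPM in Wt.

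**Figure D5:**
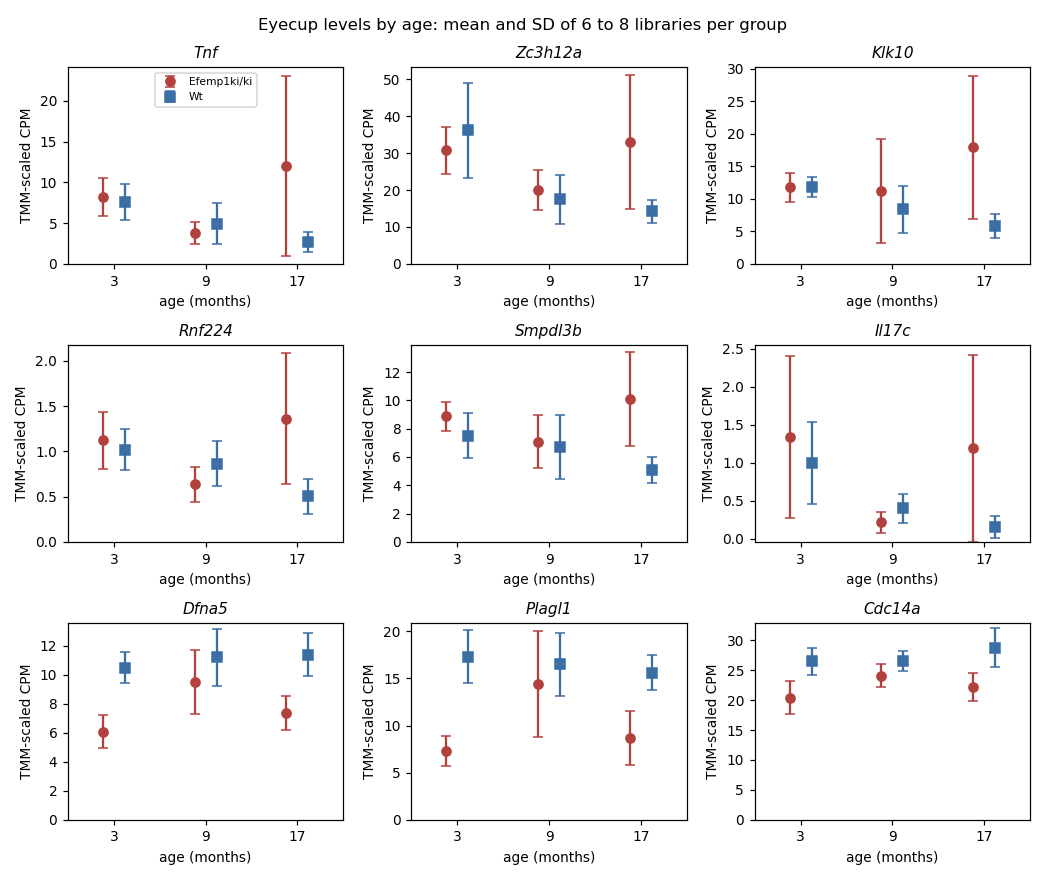
Mean TMM-scaled CPM with SD in eyecups at 3, 9 and 17 months, circles for Efemp1ki/ki (n = 8, 8 and 7) to the left of squares for Wt (n = 6, 8 and 8). Tnf, Zc3h12a, Klk10, Rnf224 and Smpdl3b differ in their means at 17 months, while Dfna5, Plagl1 and Cdc14a are lower in Efemp1ki/ki at both 3 and 17 months.

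Whether the difference at 17 months differed from that of the retina was tested in a joint fit of all 93 libraries. Only Ppp1r15a passed, 1 gene of 19210 (0.00521%), whose difference was larger in the eyecup by 0.77 ± 0.15 (adjusted p = 0.0297). In retinas at 17 months it averaged 17.2 ± 1.66 CPM in Efemp1ki/ki and 20.6 ± 3.15 CPM in Wt (SD, n = 8 each). Cdc14a came to -0.49 ± 0.10 (0.0591), Dfna5 to -0.73 ± 0.16 (0.0633) and Plagl1 to -1.06 ± 0.23 (0.0618). In retinas Dfna5 averaged 14.4 ± 1.87 CPM in Efemp1ki/ki and 13.9 ± 2.23 CPM in Wt, and Tnf 0.149 ± 0.116 and 0.197 ± 0.129 CPM.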

How the data were processed

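RNA of 15 eyecups at 17 months was sequenced as poly(A)-selected stranded libraries, per the labels' protocols. The authors deposited estimated counts per gene, not normalized, on genome build GRCm38.p4 per the submitters' processing notes. Aligner, counter and strand setting: not given in the sources used here. A second deposited table, which the authors name TPM, was treated as a score per gene and used only on the log2 scale with a pseudocount of 1 or 0.1. Of each file, 1 column matched no library and was not used.

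Counts were rounded, filtered with filterByExpr, scaled by TMM and tested with edgeR 4.0.16 (quasi-likelihood, robust) in R 4.3.3, in 1 fit of 45 eyecup libraries in 6 groups, whose biological coefficient of variation was 0.309. The steps were tested on simulated data. P-values were adjusted over all genes by the Benjamini-Hochberg method at 0.05. Alternatives used limma 3.58.1, DESeq2 1.42.0, sva 3.50.0, a GC offset, a replicate block and left-out libraries. The offset was a spline of log2 deviation on transcript GC content, which 99.8% of tested genes had.

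Named genes are the called ones, the 12 with the smallest p in each direction with a log2 fold change of at least 0.5, the members with the smallest p in each list, family members of called genes and Efemp1, Cfb, Plagl1 and Gulp1. Members and lists were chosen with earlier results of these data known. Promoters are those of RefSeq (GRCm38.p6). Intervals from depth were not used, and no 2 libraries of a group agreed within sampling noise.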

Additional observations from a re-analysis of the deposited data

Results flagged for a closer look

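Among the named genes, 136 sets of values (1 gene in 1 genotype) were searched for a library far from the rest, and 9 were found, where chance alone gives about 5% of sets. Cldn34c1 was at 0.137 CPM in Efemp1ki/ki library 1, below the next lowest value of 0.411 CPM. Atf3 was at 32.2 CPM in Efemp1ki/ki library 5, above the next highest of 12.5 CPM. Cdkn2a was at 0.598 CPM in Efemp1ki/ki library 7, below the next lowest of 1.82 CPM. In Efemp1ki/ki library 2, Sptlc3 was at 13.1 CPM, above the next highest of 0.481 CPM, and Scd3 at 80.6 CPM, above the next highest of 2.21 CPM. In Wt libraries, Hyou1 was at 71.8 CPM in library 8, where the next lowest was 78.9 CPM, and Mvd at 31.1 CPM in library 6, where the next highest was 23.9 CPM. Trp53inp1 was at 45.8 CPM in Wt library 6, above the next highest of 36.9 CPM, and Scd3 at 11.7 CPM in Wt library 8, above the next highest of 2.67 CPM.

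The genotype difference itself differed between groups for 4 genes by edgeR's quasi-likelihood test of the difference. Between 17 and 9 months it differed by 1.88 ± 0.35 on the log2 scale for Rnf224 (adjusted p = 0.0241), by 5.74 ± 1.08 for Cyp4a14 (0.0241) and by 11.75 ± 1.70 for Alb (0.000397), the last 2 from levels near 0. For Ppp1r15a the difference in eyecups at 17 months exceeded that in retinas by 0.77 ± 0.15 (0.0297).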

How the results depend on the processing

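The number of genes called at 17 months was 11, and 9 with size factors by relative log expression. It was 5 with no filter beyond 1 read, 2 with limma on log2(TPM + 0.1), 0 with limma on log2(TPM + 1), 0 in a fit of only the 2 groups, 0 with the GC offset and 0 without Efemp1ki/ki libraries 4 and 5. It was 52 with DESeq2, 298 with surrogate variables, 478 with limma voom and 82 without Efemp1ki/ki libraries 2 and 5, the last chosen after seeing the data. With tissue covariates it was 14. The replicate block gave 1 call, 0 in the 2 groups alone and 0 with the GC offset. The replicate numbers did not pair the libraries: same-numbered deviations correlated from -0.538 to 0.595. Leaving out each library in turn gave 0 to 23 calls. No call changed sign in these settings, and Rnf224 was kept in 19 of 30, Tnf in 17 and Il17c in 6 of 28; what moved the counts was not tested.

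For the difference between 17 and 3 months the count of 0 became 1 with DESeq2, and 0 to 1 on leaving out single libraries. For 17 against 9 months the count of 3 became 1 with the replicate block and 5 with DESeq2, and was 1 to 4 without single libraries. For eyecup against retina the count of 1 became 2 with relative log expression, 2 with the replicate block, 14 with DESeq2 and 187 with limma voom. The GC trend difference of 0.133 kept its direction and its side of the threshold, at 0.0992 to 0.165. Among named genes that were not called, Klk6 reversed to -0.0601 with surrogate variables and -0.0293 with tissue covariates, and lay between -0.0533 and 0.157 without single libraries, negative without Efemp1ki/ki library 8. Efemp1 lay between -0.156 and 0.00561, positive without Wt library 6. Sptlc3 and Scd3, whose positive values rest on Efemp1ki/ki library 2, reversed to -1.08 and -0.912 without libraries 2 and 5, to -1.22 and -0.965 with DESeq2 and to -1.46 and -0.239 with limma voom. Sptlc3 also reversed to -0.141 on log2(TPM + 0.1) and Scd3 to -0.122 with the replicate block in the 2 groups. Without single libraries Sptlc3 lay between -1.31 and 2.11 and Scd3 between -0.932 and 2.88, both lowest without Efemp1ki/ki library 2. Of the 11 called genes, Il17c, Rnf224, Gm44276 and Cldn34c1 had means under 2 CPM in both genotypes, where few reads limit the precision.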

Other observations

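Around Smpdl3b, the other sphingolipid enzymes stayed near the background in eyecups at 17 months. Of 29 tested, 1 was called (Smpdl3b) and the median log2 fold change was 0.04. At an unadjusted p under 0.05, 3 were higher and 1 was lower, beside 6.74% and 3.27% of all genes. Ugcg, which makes glucosylceramide, measured 17.0, 19.5 and 31.0 CPM as the lowest, median and highest of Efemp1ki/ki libraries, against 18.5, 29.0 and 40.2 CPM in Wt (-0.40 ± 0.17, adjusted p = 0.404). Sptlc3, a subunit of the enzyme that starts sphingolipid synthesis, was at 13.1 CPM in Efemp1ki/ki library 2, at 0 to 0.481 CPM in the other 6 and at 0.112 to 1.56 CPM in Wt. Scd3, a fatty acid desaturase known from sebaceous and related glands, was likewise at 80.6 CPM in library 2, at 1.03 to 2.21 CPM in the other Efemp1ki/ki libraries and at 0.682 to 11.7 CPM in Wt. Their part in the other values of library 2 was not tested.

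Slc5a1, the sodium-coupled glucose transporter, came close to the threshold, with 121, 187 and 355 CPM in Efemp1ki/ki and 72.9, 105 and 180 CPM in Wt (0.89 ± 0.20, adjusted p = 0.0813). Cdkn2b, a cell cycle inhibitor beside Cdkn2a, measured 17.8, 30.2 and 44.0 CPM in Efemp1ki/ki and 15.7, 20 and 28.5 CPM in Wt (0.45 ± 0.17, adjusted p = 0.337). Trp53inp1, a target of p53, measured 18.5, 24.1 and 34.2 CPM in Efemp1ki/ki and 31.9, 35.0 and 45.8 CPM in Wt, and 6 of 7 Efemp1ki/ki libraries lay below every Wt library (-0.49 ± 0.15, adjusted p = 0.255).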
